A study of Mus musculus with 6 samples.

Results

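Axon guidance ligands and receptors were examined in the nucleus accumbens, the ventral part of the striatum and a target of midbrain dopamine axons, after repeated cocaine. The genes were taken by name from the authors' deposited table: ephrins and Eph receptors, semaphorins with their plexin and neuropilin receptors, Slits and Robos, and netrins with Dcc, Neo1 and the Unc5 receptors. Robo4, an endothelial member of its family, was left out by the rule. This gave 71 of 21540 gene records and 70 gene symbols, since Efna5 has 2 records. Of the 71 records, 63 carried a test by the authors, 31 of them for ligands and 32 for receptors. The other 8 are Efna4, Epha1, Ntn5 and Unc5cl, marked as not tested, the second Efna5 record, and Nrp2, Ntn3 and Sema4d, whose test failed. That Efna5 record is marked as low in data. Unc5cl was caught by its name only and counts here as neither a ligand nor a receptor.

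The cocaine group consisted of C57BL/6 mice given 20 mg/kg cocaine intraperitoneally once a day for 7 days, and the controls were mice of the same strain whose treatment is labelled saline. The text of the treatment protocol is the same for both, and the label was followed. Both groups belong to a time point of 4 h in withdrawal, with 3 RNA sequencing libraries each. The labels do not say how many animals went into a library, so the deposited p-values may measure technical spread only. Records encoded by the mitochondrial genome took 6.74% of the summed FPKM after saline and 8.15% after cocaine, and their part in the results was not tested; rescaling without them changed no member's sign. Each gene has 1 value per group in FPKM, a fragment count scaled to transcript length and to the mapped fragments of a library, and no value per library. No spread between replicates can therefore be shown, and the read depth is unknown.

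Axon guidance cues steer growing axons by attraction or repulsion, and many of them stay expressed in the adult brain, where they act on spines and synapses. Ephrins are membrane-bound ligands of the Eph receptor tyrosine kinases and can also signal backwards into the cell that carries them. Secreted class 3 semaphorins mostly bind neuropilins that partner with plexin-A receptors, whereas membrane semaphorins bind plexins directly. Slits repel axons through Robo receptors. Netrin-1 attracts axons through Dcc and repels them through Unc5 receptors, and this system guides dopamine axons towards the forebrain.

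Of the 63 tested records, 2 fell, 0 rose and 61 did not pass at the deposited q < 0.05, the threshold for a call. Both calls were membrane-bound ligands, the ephrin Efnb3 and the semaphorin Sema6b. The share called was 1.23% over all 14959 tested records, and the share called lower was 0.709%. Efnb3 stood at 54.3 FPKM after saline and 49.1 FPKM after cocaine, the highest level of any tested member in both groups. It fell by 9.53%, a log2 fold change of -0.14 by the authors' deposited table (p = 4.36e-08, q = 1.48e-05). Sema6b stood at 39.9 and 37.2 FPKM. It fell by 6.93%, a log2 fold change of -0.10 by the authors' deposited table (p = 0.000268, q = 0.0302). In bulk tissue fewer cells of a type and less RNA per cell cannot be told apart. Both changes are small, and both genes are among the most abundant members, as the plot of levels shows. After removal of a trend with transcript GC content and length that is described further on, Efnb3 stood at -0.07 and Sema6b at -0.04.

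**Figure D1:**
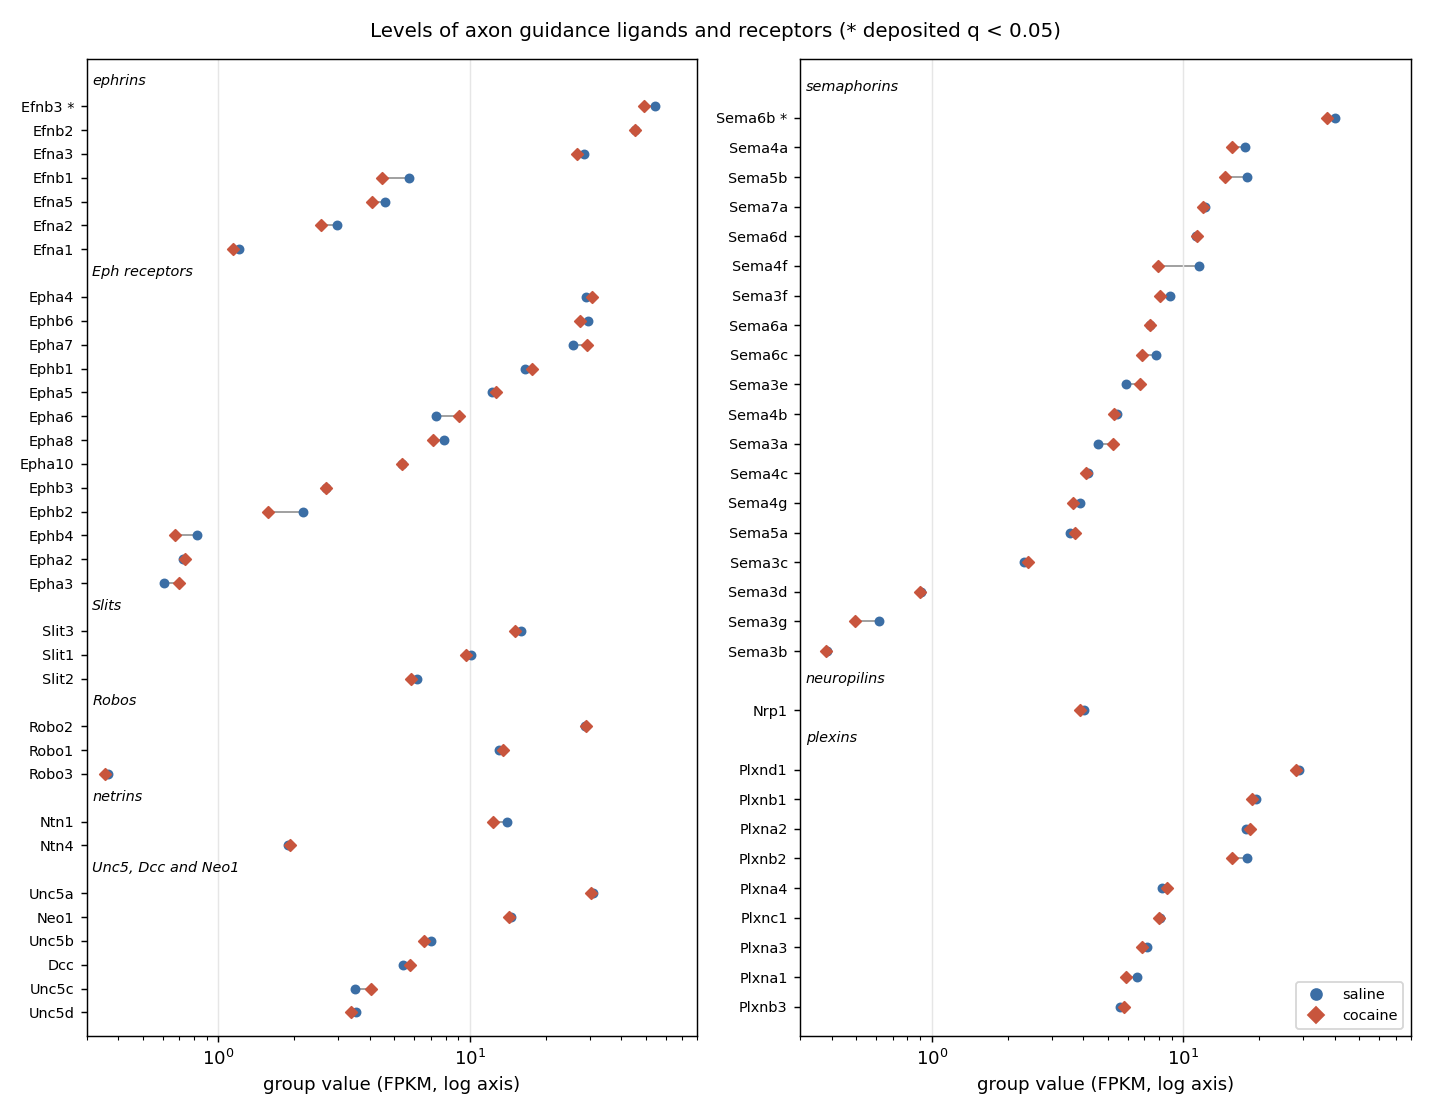
Group values of the 63 tested records in FPKM on a log axis, with saline as blue circles and cocaine as red diamonds, by family. Efnb3 (54.3 and 49.1 FPKM) and Sema6b (39.9 and 37.2 FPKM), marked with an asterisk, passed the deposited q < 0.05, and for most members the symbols of both groups touch.

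At an unadjusted p under 0.05, the authors' deposited table held 13 of the 63 members, or 20.6%, against 5.76% of all tested records. Of the 13, 5 lay above 0 (2.02% of all tested records) and 8 below 0 (3.74% of all). These unadjusted counts are a description, and 11 of the 13 did not pass the adjusted threshold. They comprised Efnb3, Epha4, Epha6, Epha8 and Ephb2 of the ephrin system, Sema3e, Sema4f, Sema6b, Plxna1 and Plxna4 of the semaphorin system, and Slit3, Ntn1 and Unc5c. Members had longer transcripts than other genes, with a median of 5582 bases against 3407.5 for all tested genes that reached 1 FPKM in either group, and a longer transcript collects more fragments at the same FPKM. The part of length in this count was not tested.

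The precision behind each value can be approximated from the deposited p-value, if its statistic is taken as normal on the log2 scale. On that assumption the standard error of the log2 fold change lay between 0.03 and 0.36 for the 56 tested members of at least 1 FPKM, and its median was 0.11. It was 0.03 for Efnb3, 0.03 for Sema6b and 0.20 for Sema4f. The largest deposited differences were thus not the ones that passed. The interval of 50 of the 63 tested members held 0.

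**Figure D2:**
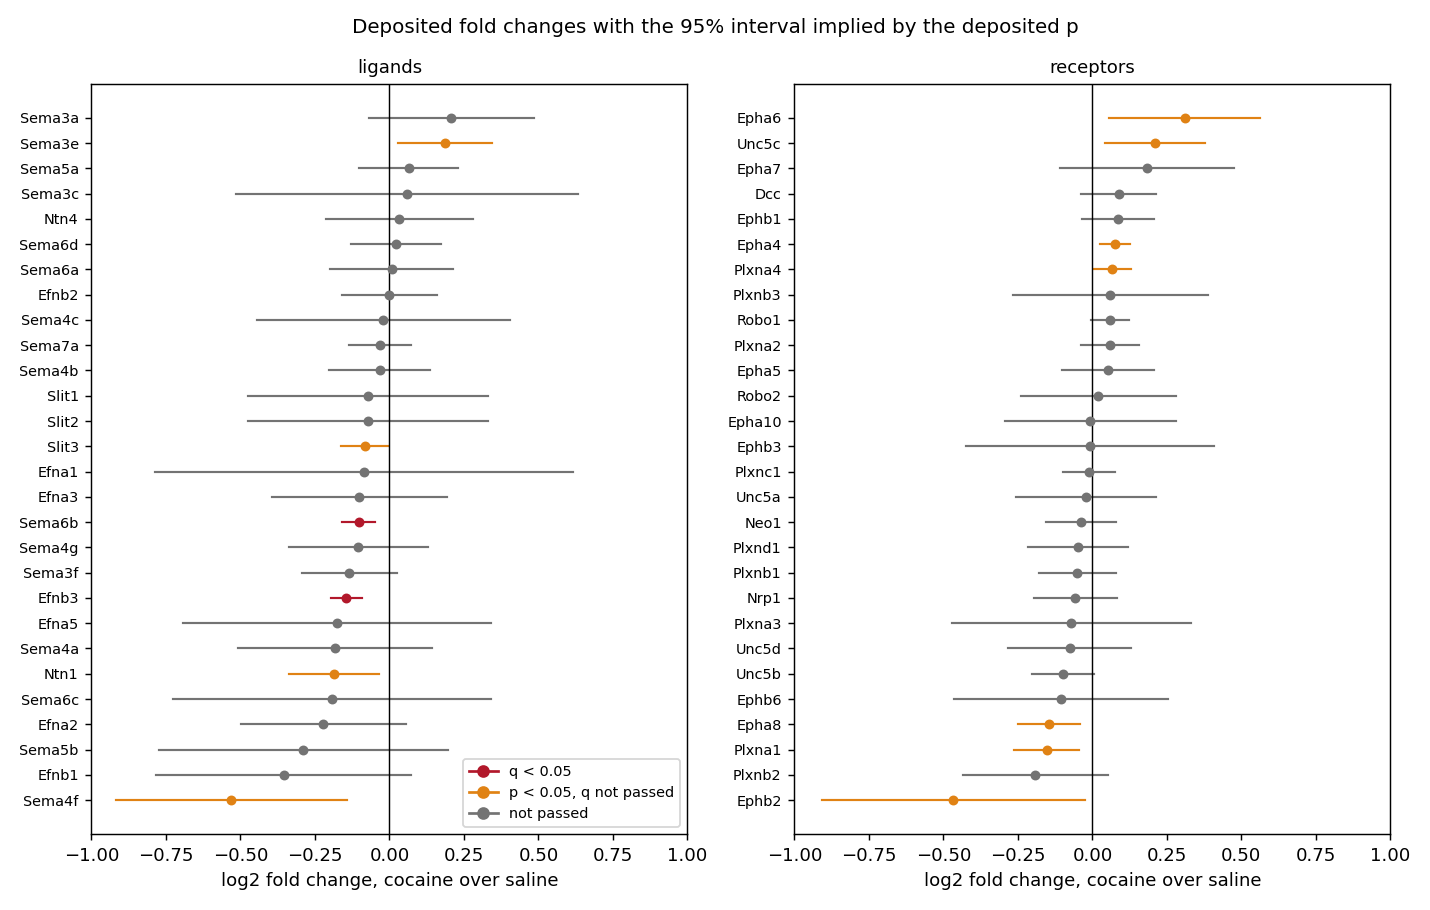
Deposited log2 fold change, cocaine over saline, of the 28 ligands and 28 receptors of at least 1 FPKM, with lines for the 95% interval implied by the deposited p-value under a normal statistic. Red marks the 2 calls, orange an unadjusted p under 0.05 only, and grey the rest; Sema4f and Ephb2 lie farthest to the left with wide intervals.

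The promoter windows of a called and of a contrasting member are shown: the 250 bases before the start of Sema6b, a called fall, and those before Epha4, the member above 0 with the smallest deposited p. The sequences are from RefSeq on GRCm38.p6, which is a later build than the authors' NCBIM37, and were matched by symbol. The Sema6b window lies at chr17:56140344-56140593 and the Epha4 window at chr1:77515089-77515338, both on the minus strand, and both are printed 5′ to 3′. Sema6b has 2 listed starts, and the more upstream one was used. No window was available for Efnb3, the other call. Capitals mark CpG dinucleotides, the usual site of cytosine methylation and of its oxidation by Tet1, the enzyme in the title of the series.
Sema6b: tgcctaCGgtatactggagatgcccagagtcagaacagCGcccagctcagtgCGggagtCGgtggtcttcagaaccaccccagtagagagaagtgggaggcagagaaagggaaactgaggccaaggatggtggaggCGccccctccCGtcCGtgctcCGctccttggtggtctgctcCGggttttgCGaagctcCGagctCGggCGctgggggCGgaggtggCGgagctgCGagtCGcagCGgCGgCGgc
Epha4: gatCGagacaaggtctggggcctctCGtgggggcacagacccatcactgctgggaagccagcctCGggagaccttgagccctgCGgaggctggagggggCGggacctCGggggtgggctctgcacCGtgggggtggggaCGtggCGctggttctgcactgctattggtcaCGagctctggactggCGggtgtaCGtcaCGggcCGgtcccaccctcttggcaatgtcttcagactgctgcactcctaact

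Both windows are rich in CpG, with 20 in Sema6b and 14 in Epha4 and the same GC content of 66.0%. Members on a set-aside chromosome were dropped, a step not applied to the promoters of all genes. Some other members had no window. Of the members with an unadjusted p under 0.05, no window was read for Efnb3, Ntn1, Plxna1 and Plxna4. Windows of 60 member symbols were read, and they held a median of 16 CpG (range 1 to 46), against 6 over 27025 promoters of all genes. Those promoters were not limited to genes tested or expressed here, so they are an unlike base for the CpG and motif values. Among the members, the windows of Sema4d, Sema3a, Sema4a and Ntn5 held the fewest, at 1 or 2. With both strands searched, the cyclic AMP response element TGACGTCA was found in 1 window, that of Epha2, against 1.60% of all promoters. The AP-1 site TGANTCA was found in 1 window, that of Sema4c, against 6.85% of all promoters, and the Egr site GCGTGGGCG in 2, those of Efna3 and Plxna2, against 0.540%. A match is a description of the letters only, and methylation was not measured in these files.

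Among the ligands of the ephrin system, all 7 tested ephrins lay below 0 on the deposited log2 scale. Their median fold change was -0.14, against -0.02 over all 12825 tested genes of at least 1 FPKM, of which 59.3% lay below 0. Efnb2 counts among the 7 by a hair. With the median of all genes subtracted, or without the trend in GC content and length, it lay above 0 (0.02 under each) and the other 6 below. Without that trend the median of the 7 ephrins was -0.07. Efnb3 was the only call of the 7. The second most abundant ephrin, Efnb2, stood at 45.5 FPKM in both groups. Efnb1 had the largest difference, with 5.71 FPKM after saline and 4.46 FPKM after cocaine, and did not pass (log2 fold change -0.36, p = 0.104 by the authors' deposited table). The A-type ephrins, which are tethered by a lipid anchor and mostly bind EphA receptors, did not pass. Efna3 was the highest of them at 28.5 and 26.6 FPKM, Efna5 stood at 4.61 and 4.08 FPKM, and Efna2 at 2.97 and 2.55 FPKM. Efna1 was the lowest at 1.21 and 1.14 FPKM. Levels thus spanned a wide range within the family, and the order of the ephrins by level was the same in both groups.

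None of the 13 tested Eph receptors passed by the authors' deposited table, where 4 had an unadjusted p under 0.05. Of all tested records 5.76% had such a p. Epha4, a receptor for ephrins of both types and a partner of Efnb3, had the highest mean of both groups in the family, although Ephb6 stood slightly above it after saline. Epha4 stood at 29.1 FPKM after saline and 30.6 FPKM after cocaine (log2 fold change 0.08, p = 0.00245, q = 0.167 by the authors' deposited table). Epha6 had the largest difference above 0, with 7.33 and 9.09 FPKM (log2 fold change 0.31, p = 0.0165, q = 0.648 by the authors' deposited table). Epha8 and Ephb2 lay on the other side. Epha8 stood at 7.92 and 7.16 FPKM (log2 fold change -0.15, p = 0.00607, q = 0.330 by the authors' deposited table). Ephb2, a receptor known for its place at excitatory synapses, stood at 2.18 and 1.58 FPKM. Its log2 fold change was -0.47 as deposited (p = 0.0383 by the authors' deposited table) and -0.30 with a pseudocount of 1, since its level is low.

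The other Eph receptors showed no difference that passed. Epha7 was at 25.7 and 29.2 FPKM (p = 0.218 by the authors' deposited table), Ephb1 at 16.6 and 17.6 FPKM and Epha5 at 12.3 and 12.7 FPKM. Ephb6 and Epha10 lack kinase activity. Ephb6 was abundant at 29.6 and 27.5 FPKM, and Epha10 was at 5.37 and 5.35 FPKM. Ephb3 was at 2.68 and 2.67 FPKM. Epha2, Epha3 and Ephb4 were under 1 FPKM in both groups. Epha2 was at 0.722 and 0.735 FPKM and Ephb4 at 0.822 and 0.672 FPKM. Epha3, at 0.608 and 0.696 FPKM, was the lowest by the mean of both groups, although Ephb4 was lower after cocaine. Among members of at least 1 FPKM, 4 of 6 EphA receptors lay above 0 and 3 of 4 EphB receptors below 0. Of all tested genes of at least 1 FPKM, 59.3% lay below 0. The signs of the receptors are not stable for every gene: with the median of all genes subtracted they were 5 of 6 EphA above 0 and 2 of 4 EphB below 0. With the GC content and length trend removed, 4 of 6 EphA lay above 0 and 2 of 4 EphB below 0. Summed over the tested records, EphA receptors stood at 89.0 FPKM after saline and 95.6 FPKM after cocaine, and EphB receptors at 51.9 and 50.03 FPKM.

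Semaphorins gave 1 fall, Sema6b, 0 rises and 18 members not passing among 19 tested by the authors' deposited table. Sema6b is a transmembrane ligand of plexin-A receptors and was by far the most abundant semaphorin. The next of the tested ones were Sema4a at 17.6 and 15.5 FPKM and Sema5b at 18.0 and 14.7 FPKM, neither of which passed. Sema4f, a class 4 transmembrane semaphorin, had the largest difference of all tested members. It stood at 11.5 FPKM after saline and 7.96 FPKM after cocaine (log2 fold change -0.53, p = 0.00725, q = 0.376 by the authors' deposited table). It was also the largest member difference with the GC and length trend removed, at -0.47. The 5 tested class 4 semaphorins, Sema4a, Sema4b, Sema4c, Sema4f and Sema4g, all lay below 0 as deposited. So did 59.3% of all tested genes of at least 1 FPKM. Sema4b was at 5.43 and 5.31 FPKM, Sema4c at 4.17 and 4.12 FPKM and Sema4g at 3.90 and 3.62 FPKM. That sign did not hold for all 5: Sema4c lay above 0 with the median of all genes subtracted. With the trend removed, Sema4b and Sema4c lay above 0. A further class 4 member, Sema4d, whose test failed, was higher after cocaine, at 17.6 FPKM after saline and 19.2 FPKM after cocaine. It had the highest mean of both groups in its class.

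Class 3 semaphorins, the secreted ones, lay partly on the other side. Sema3e, which binds plexin-D1 without a neuropilin, stood at 5.90 and 6.71 FPKM (log2 fold change 0.19, p = 0.0193, q = 0.707 by the authors' deposited table). Sema3a, the classical collapse factor of growth cones, stood at 4.56 and 5.26 FPKM and had the largest semaphorin difference above 0 (log2 fold change 0.21, p = 0.143 by the authors' deposited table). Neither passed. Sema3f, the usual ligand of neuropilin-2, lay below 0 at 8.88 and 8.09 FPKM (p = 0.0975 by the authors' deposited table), and Sema3c was at 2.32 and 2.42 FPKM. Sema3b, Sema3d and Sema3g were under 1 FPKM in both groups. Sema3d was at 0.909 and 0.898 FPKM, Sema3g at 0.615 and 0.493 FPKM, and Sema3b was the lowest at 0.383 and 0.381 FPKM. Of the remaining classes, Sema7a, a lipid-anchored ligand of plexin-C1, was at 12.2 and 11.9 FPKM and Sema6d at 11.2 and 11.4 FPKM. Sema6c was at 7.79 and 6.82 FPKM, Sema6a at 7.33 and 7.37 FPKM and Sema5a at 3.54 and 3.71 FPKM. For Sema7a the implied 95% interval of the log2 fold change ran from -0.14 to 0.07, whereas for Sema6c it ran from -0.73 to 0.34.

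None of the 9 plexins passed by the authors' deposited table. Plxnd1, the receptor of Sema3e and in the striatum a gene of direct-pathway spiny neurons, was the most abundant at 28.9 and 27.9 FPKM (p = 0.578 by the authors' deposited table). Its implied 95% interval ran from -0.22 to 0.12 on the log2 scale. Plxna1 and Plxna4, both plexin-A receptors that partner with neuropilins, lay on opposite sides of 0. Plxna1 stood at 6.56 and 5.90 FPKM (log2 fold change -0.15, p = 0.00507, q = 0.289 by the authors' deposited table). Plxna4 stood at 8.19 and 8.58 FPKM (log2 fold change 0.07, p = 0.0366 by the authors' deposited table). Plxnb2 had the largest difference below 0 among plexins, at 17.9 and 15.7 FPKM, and did not pass. Plxnb1 was at 19.4 and 18.8 FPKM, Plxna2 at 17.7 and 18.4 FPKM and Plxnc1 at 8.08 and 8.02 FPKM. Plxna3 was at 7.17 and 6.82 FPKM, and Plxnb3 was the lowest at 5.59 and 5.83 FPKM. The neuropilin Nrp1, a coreceptor of class 3 semaphorins that endothelial cells also carry, was at 4.02 and 3.87 FPKM and did not pass (p = 0.423 by the authors' deposited table).

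The 3 Slits all lay slightly below 0, between -0.08 and -0.07 on the log2 scale, and they did so under each scaling that was tried. None of the 3 passed, and 59.3% of all tested genes of at least 1 FPKM lay below 0 as deposited. Slit3 was the most abundant at 16.0 and 15.1 FPKM (log2 fold change -0.08, p = 0.0417 by the authors' deposited table), and its value with the GC and length trend removed was -0.03. Slit1 was at 10.1 and 9.60 FPKM and Slit2 at 6.15 and 5.84 FPKM, each with an implied standard error of 0.21 on the log2 scale. Of their receptors, Robo2 was at 28.7 and 29.0 FPKM and Robo1 at 13.1 and 13.6 FPKM (p = 0.0771 for Robo1 by the authors' deposited table). Robo3, known from commissural neurons of the hindbrain and spinal cord, was close to the floor at 0.365 and 0.355 FPKM. Summed over each family, the receptors stood higher than the ligands in both groups, with summed levels of 42.1 FPKM for Robos and 32.3 FPKM for Slits in the saline group.

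The netrin system gave no call by the authors' deposited table, with 0 of 2 netrins and 0 of 6 receptors. Ntn1 stood at 14.0 FPKM after saline and 12.3 FPKM after cocaine (log2 fold change -0.19, p = 0.0155, q = 0.626 by the authors' deposited table). Ntn4, a netrin of basement membranes, was at 1.89 and 1.93 FPKM. Dcc, the receptor for attraction, was at 5.42 and 5.77 FPKM (log2 fold change 0.09, p = 0.164 by the authors' deposited table), and the implied 95% interval of its fold change ran from -0.04 to 0.22. Neo1, which binds netrins and repulsive guidance molecules, was at 14.6 and 14.2 FPKM. Among the Unc5 receptors, which mediate repulsion, only Unc5c had an unadjusted p under 0.05. It stood at 3.48 and 4.03 FPKM (log2 fold change 0.21, p = 0.0141, q = 0.580 by the authors' deposited table). Unc5a was far more abundant at 30.9 and 30.4 FPKM, Unc5b was at 7.00 and 6.54 FPKM and Unc5d at 3.54 and 3.35 FPKM. Ntn1 and Unc5c therefore lay on opposite sides of 0, and neither passed.

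By role, 21 of the 28 ligands of at least 1 FPKM lay below 0, with a median log2 fold change of -0.08. Among the 28 receptors 16 lay below 0, with a median of -0.01. Over all tested genes of at least 1 FPKM 59.3% lay below 0, and the median was -0.02. The summed level of the tested ligands was 357 FPKM after saline and 332 FPKM after cocaine, while that of the receptors was 371 and 373 FPKM. Ligand transcripts had a higher GC content (median 56.7%) than receptor transcripts (52.1%) and were shorter (4319 against 6925 bases). With the GC and length trend removed the medians were -0.04 for ligands and -0.01 for receptors. With the median of all genes subtracted they were -0.06 and 0.01. The difference between the roles was not tested.

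GC content of the transcript went with the direction of the members. Of the 35 members above the median GC content of all genes (49.9%), 31 lay below 0 and 4 above, with a median log2 fold change of -0.10. Of the 21 at or below it, 6 lay below 0 and 15 above, with a median of 0.06. Across the 56 members Spearman's rho between fold change and GC content was -0.63, and that with transcript length was 0.39. These are correlations across genes of the same 2 groups of libraries, which are not independent replicates. Over all 12566 genes with a matched transcript the values were -0.30 and 0.18. The trend was therefore removed by taking away, from each gene, the median of genes alike in GC content and length. The 2 sets of members then had medians of -0.04 (GC-rich) and 0.03 (GC-poor), and 9 of the 56 members changed sign. Spearman's rho with GC content across the members was then -0.42, so the step took away only a part of their trend. Whether GC content or length had a part in the deposited differences was not tested.

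**Figure D3:**
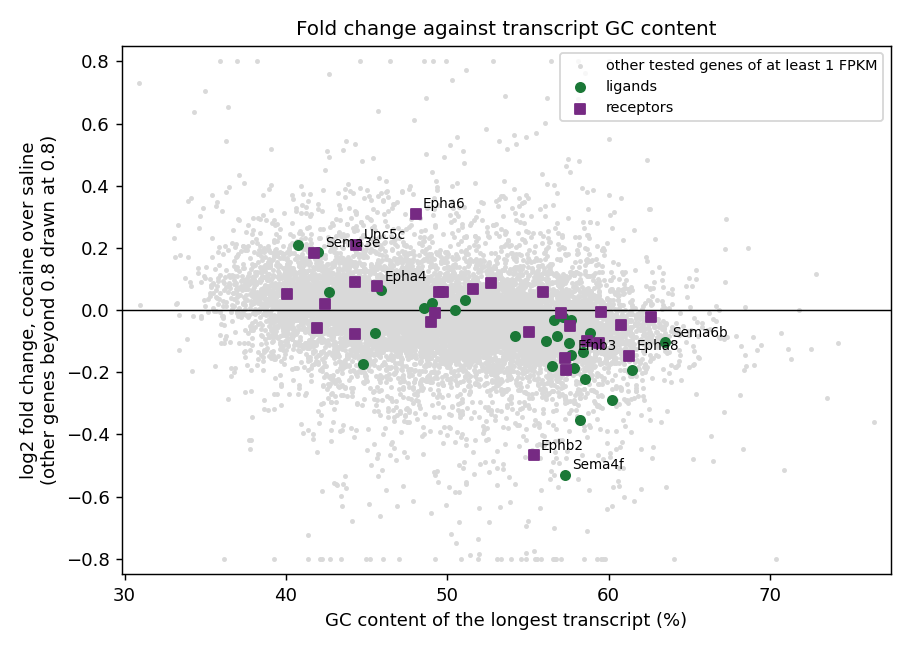
Deposited log2 fold change against GC content of the longest transcript for the 28 ligands (green circles) and 28 receptors (purple squares) of at least 1 FPKM, over all other tested genes in grey. Members with GC-poor transcripts, such as Sema3e and Unc5c, lie mostly above 0 and those with GC-rich transcripts, such as Sema6b and Epha8, mostly below.

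Among the 13 members with an unadjusted p under 0.05, all kept their sign with the trend removed. Epha6 (0.31 before and after), Epha4 (0.08 and 0.06) and Plxna4 (0.07 and 0.08) hardly moved. Sema4f (-0.53 and -0.47), Ephb2 (-0.47 and -0.42), Plxna1 (-0.15 and -0.12), Epha8 (-0.15 and -0.11), Ntn1 (-0.19 and -0.15), Sema3e (0.19 and 0.16) and Unc5c (0.21 and 0.17) moved by less than their implied standard error. Efnb3, Sema6b and Slit3 moved by more than it. The 2 called members were thus among the 3 whose values shrank most in relation to their precision.

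**Figure D4:**
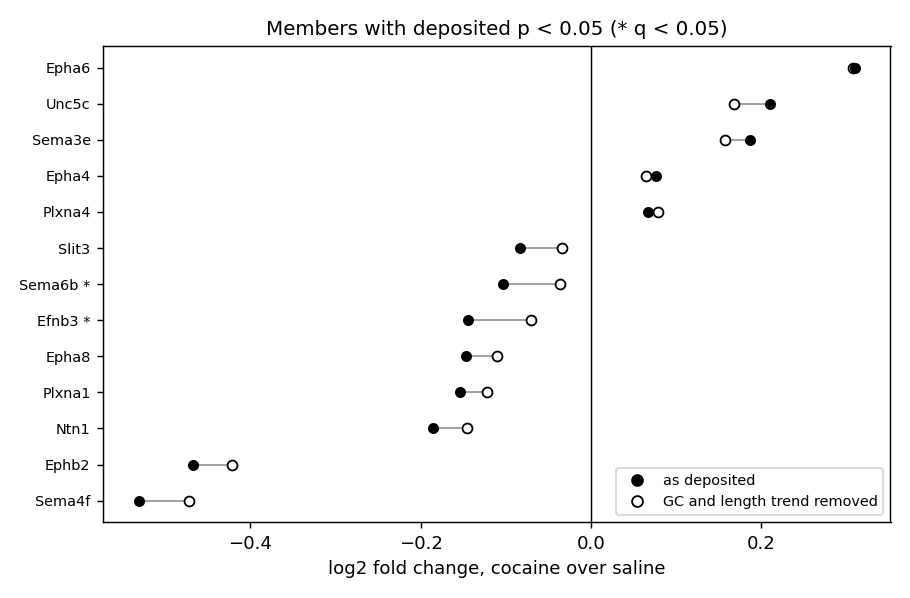
Log2 fold change, cocaine over saline, of the 13 members with an unadjusted deposited p under 0.05, as deposited (filled) and with the GC content and length trend removed (open). Efnb3 goes from -0.14 to -0.07 and Sema6b from -0.10 to -0.04, and every member stays on its side of 0.

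Genes that act with these ligands and receptors were counted in 2 lists. Of 30 tested genes for other guidance ligands, coreceptors and adhesion molecules, 1 fell, 0 rose and 29 missed the threshold by the authors' deposited table, with a median log2 fold change of -0.01. The fall was Islr2, a membrane protein of developing axons also called Linx, at 26.7 and 21.6 FPKM (log2 fold change -0.31, q = 3.79e-06 by the authors' deposited table). Rtn4r, the Nogo receptor, stood at 3.66 and 2.70 FPKM and did not pass (q = 0.108 by the authors' deposited table). Of 62 tested intracellular effectors, 1 rose, 0 fell and 61 did not pass, with a median of -0.03. The rise was Sipa1l1, a spine protein with a GTPase-activating domain for Rap, at 81.3 and 87.9 FPKM (log2 fold change 0.11, q = 0.000105 by the authors' deposited table). Cfl1, the actin-severing protein cofilin, stood at 354 and 340 FPKM and did not pass (q = 0.0571 by the authors' deposited table). As shares, 3.33% of the first list and 1.61% of the second were called, beside the 1.23% of all tested records.

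Several members are also expressed outside neurons. All 21 endothelial and mural markers lay below 0, with a median of -0.30 and 1 call, Cldn5, and their summed level was 159 FPKM after saline and 136 FPKM after cocaine. None of these markers was at 0. Neuroblast markers gave 3 falls among 12 tested genes, with 11 below 0 and a median of -0.32 over the 11 of at least 1 FPKM. The exception was Dcx, with a log2 fold change of 0.03 by the authors' deposited table. The summed level of the neuroblast markers was 360 and 333 FPKM. Most of that sum came from Tubb3, Stmn1 and Stmn2, at 153, 93.9 and 56.6 FPKM after saline. The part of either cell type in the members' values was not tested. Spiny neuron markers, which define the labelled tissue, were all present: the 15 of them stood at 60.05 FPKM or more in both groups, with 0 calls. Of the 15, 13 lay below 0, 4 of them with an unadjusted p under 0.05, and the summed level was 5025 and 4894 FPKM. With the median of all genes subtracted 10 lay below 0, and 7 did without the trend in GC content and length. Their part in the members' values was not tested. Cortical glutamatergic markers summed to 73.0 and 67.0 FPKM with 1 fall among 9, Slc17a7. Most of that sum came from Slc17a7, at 49.9 and 44.9 FPKM. Of the 9 cortical markers 7 lay below 0, with a median of -0.19 over the 6 of at least 1 FPKM. The part of cortical cells in the members' values was not tested. Astrocyte markers gave 0 calls among 12 (summed level 1610 and 1684 FPKM) and oligodendrocyte markers 0 among 16 (3088 and 3123 FPKM). Of the 12 astrocyte markers 8 lay above 0, and 4 had an unadjusted p under 0.05, 3 higher and 1 lower. Of the 16 oligodendrocyte markers 7 lay above 0, and 2 had such a p, each higher. So did 6 endothelial and mural, 8 neuroblast and 2 cortical markers, all of them lower. For comparison with these marker counts, 1.23% of all tested records were called and 5.76% had an unadjusted p under 0.05. Over all tested genes of at least 1 FPKM, 59.3% lay below 0, with a median of -0.02.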

How the data were processed

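RNA sequencing reads of 3 cocaine and 3 saline libraries were processed by the authors with TopHat2 2.0.6 and Cufflinks 2.0.2 on build NCBIM37, per the submitters' processing notes. Settings and annotation: not given in the sources used here. The deposited table has 1 FPKM value per group and gene; the unit was inferred from its layout. The score column of fold changes deposited by the authors is the log2 ratio of cocaine over saline, and the authors' deposited p-value and q-value were taken as they stand. A failed test is listed with a fold change of 0 and a p of 1, and was not used.

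Members and lists were chosen with earlier results of these data known. A call is q < 0.05 over the whole table. Medians use tested genes that reached 1 FPKM in either group, 1 record per symbol. The genes named are members with q or p under 0.05, the extremes of each family by level and by change, the called genes of the pathway lists and those with the smallest p. Other members and marker genes are named with values, chosen after their values were seen. GC content and length come from the longest transcript in GENCODE mouse release M21 (found for 98.0% of genes), in 10 by 10 cells. Python 3.11.15, pandas 2.3.3 and SciPy 1.17.1 were used, and the computations were tested on simulated data. No test was run on group values, and no counting interval could be given without read depth.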

Additional observations from a re-analysis of the deposited data

How the results depend on the processing

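No value per library was analysed here, so leaving out a replicate could not be tried. No paired analysis was possible because the table holds a single value per group. The 2 calls stayed 2 at a deposited q under 0.1 and with the adjustment recomputed over all tested records (199 calls in all, against 184), and 1 was left, Efnb3, at a q under 0.01. With the median of all tested genes subtracted, the median log2 fold change went from -0.0434 to -0.0224 for all members, from -0.0842 to -0.0632 for ligands and from -0.0095 to 0.0115 for receptors. With the GC content and length trend removed it was -0.0246 for all members and -0.0352 for ligands, and among members of at least 5 FPKM it was -0.0923 for ligands. The cause of these shifts was not tested. Rescaling without mitochondrially encoded records moved every value by 0.00047 and changed no sign among the members. Of the 13 members named for an unadjusted p under 0.05, none changed sign under any alternative tried. The unknown read depth and the absence of library values limit every statement on precision.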

Other observations

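The 8 records without a usable test gave group values only. Sema4d, a class 4 semaphorin that binds plexin-B1, stood at 17.6 FPKM after saline and 19.2 FPKM after cocaine, so it ranked with Sema4a and Sema5b behind Sema6b. Nrp2, the neuropilin that pairs with Sema3f, stood at 5.04 and 4.83 FPKM, above Nrp1 in both groups. Ntn3 stood at 2.87 and 2.68 FPKM. The test of these 3 records is marked as failed. Efna4, Epha1, Ntn5 and Unc5cl lay at or under 0.112 FPKM in both groups, and the second record of Efna5 stood at 0.613 and 0.412 FPKM.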
